A study of Mus musculus with 15 samples.

Results

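The acyl-CoA thioesterases of the Acot family were followed in liver transcriptomes of mice kept under every-other-day fasting (EOD), daily fasting of 16 h (IF16) or ad libitum feeding (AL). The members were the genes of the deposited tables named Acot1, Acot2, Acot3, Acot4, Acot5, Acot6, Acot8, Acot12 and Acot13, which are 9 of 35275 genes. All animals were C57BL/6 mice, aged 3 months when the regimen began and 6 months when it ended, with no transgene or drug named in the labels. EOD mice had fasting periods of 24 h, IF16 mice had fasting periods of 16 h, and AL mice had food at all times. Each group has 5 libraries of polyadenylated RNA from the left lateral liver lobe. No label ties a library to its own mouse, so p-values measure the spread between libraries, which may be technical, and no source gives the time between the last meal and the harvest.

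Acyl-CoA thioesterases cut the bond between a fatty acyl group and coenzyme A, which releases the free acid and returns the coenzyme. The members differ in where they act and on which chain: Acot1 works on long chains in the cytosol, Acot2 on long chains in mitochondria, Acot3, Acot4, Acot5 and Acot6 in peroxisomes, Acot8 on a broad range of chains in peroxisomes, Acot12 on acetyl-CoA in the cytosol, and Acot13 on long chains at mitochondria. In mouse liver several of them are textbook targets of PPARA, the nuclear receptor for fatty acids that is active in fasting.

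Library totals ran from 28129883 to 38147534 counts. The hepatocyte marker list was high in every library, at a summed 49271 to 61808 FPKM (fragments per kilobase of gene, scaled to the library total) in EOD, 59350 to 72462 FPKM in IF16 and 50717 to 60551 FPKM in AL libraries. AL replicates 4 and 5 stood apart. Their 10 acute phase transcripts summed to 25477 and 42775 FPKM and their 5 neutrophil markers to 57.4 and 52.7 FPKM, against at most 8764 FPKM and 7.78 FPKM in any other library. In 5 of the 8 members with AL counts (Acot1, Acot2, Acot3, Acot4 and Acot13) both lay below AL replicates 1 to 3. The share of all tested genes for which this held was not computed. AL replicates 1 to 3 differed in another list. Their 5 adipocyte markers summed to 7.63, 7.41 and 2.62 FPKM, against at most 0.664 FPKM in any other library. Fits without AL replicates 4 and 5 keep only these libraries as the AL group. EOD replicate 5 had 10.1% of its counts on mitochondrial genes, against 5.34% to 6.82% in the other EOD libraries, 8.98% to 11.5% in IF16 and 10.01% to 15.1% in AL libraries.

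Of the 9 members, 8 had enough counts to be tested, and Acot5 had 8 counts in all. In the edgeR quasi-likelihood test with Benjamini-Hochberg adjustment over 13837 genes, at a threshold of 0.05, 6 of the 8 were higher in EOD than in AL livers (Acot1, Acot2, Acot3, Acot4, Acot8 and Acot12) and 0 were lower, while 17.6% of all tested genes were called higher and 17.6% lower. Their median log2 fold change was 1.16, beside -0.01 over all tested genes. In IF16 against AL livers 3 of 8 were higher (Acot1, Acot4 and Acot12) and 0 lower, with 1.4% of all genes called higher, 2.1% called lower and medians of 0.83 for the members and 0.00 for all genes. Between EOD and IF16 livers 3 of 8 were higher in EOD (Acot1, Acot8 and Acot12) and 0 lower, with 7.96% of all genes called higher, 8.15% called lower and medians of 0.51 and 0.00. Without AL replicates 4 and 5, a choice made after seeing the data, the counts of higher members were 6, 3 and 4, the added member being Acot2 in EOD against IF16. The shares of all genes above are from the fit of all 15 libraries, so these counts have no share from their own fit beside them. The 3 comparisons share their libraries pairwise, and their results are not independent of each other.

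Acot1 (ENSMUSG00000072949, chr12:84009502-84017670 of mm10, plus strand) had the largest log2 fold change of the 8 tested members in each of the 3 comparisons. It had 171, 133, 111, 98.0 and 74.4 FPKM in the 5 EOD libraries, 15.4, 32.4, 30.8, 24.2 and 20.6 FPKM in the IF16 libraries, and 10.8, 5.27, 9.37, 4.92 and 3.49 FPKM in the AL libraries. The 3 groups did not overlap: each EOD library lay above each IF16 library, and each IF16 library above each AL library. The log2 fold change was 4.14 (SE 0.35, adjusted p = 1.84e-06) in EOD against AL, a 17.6-fold difference that ranked 3 from the top among all tested genes. It was 1.89 (SE 0.32, adjusted p = 0.00561) in IF16 against AL, at rank 20, and 2.24 (SE 0.32, adjusted p = 0.000412) in EOD against IF16, at rank 14. Within EOD the lowest library was replicate 5, and the log2 fold change against AL was 4.28 without it. Without AL replicates 4 and 5, Acot1 had 3.83 (adjusted p = 9.72e-06) in EOD against AL. In IF16 against AL the log2 fold change was then 1.57 (adjusted p = 0.0187). These are bulk livers, in which fewer cells of a type and less RNA per cell cannot be told apart.

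Acot2 (ENSMUSG00000021226, chr12:83987861-83993873, plus strand), the mitochondrial neighbour of Acot1, was also higher in EOD livers. It had 10.5, 10.4, 8.33, 10.6 and 6.90 FPKM in EOD libraries, 3.22, 6.60, 7.15, 4.93 and 4.22 FPKM in IF16 libraries, and 4.26, 4.10, 2.99, 1.37 and 0.761 FPKM in AL libraries. EOD lay above AL throughout, IF16 overlapped both other groups, and AL replicates 4 and 5 were the lowest of all. In EOD against AL the log2 fold change was 1.82 (SE 0.38, adjusted p = 0.00203), and 1.35 without AL replicates 4 and 5. It was 0.99 (SE 0.37, adjusted p = 0.167) in IF16 against AL, which did not pass. In EOD against IF16 it was 0.83 (SE 0.36, adjusted p = 0.131), and this call changed with the libraries fitted: the adjusted p was 0.0197 with only EOD and IF16 libraries, 0.0128 without AL replicates 4 and 5, and up to 0.241 in other settings.

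Acot1 and Acot2 are near copies, which bears on how their counts can be read. Their coding sequences were identical at 1183 of 1239 aligned bases (95.5%), with 56 differences and an identical run of 273 bases. Of all stretches of 100 bases in their annotated transcripts, 12.4% for Acot1 and 17.1% for Acot2 also occur in another gene. The longest of these Acot1 transcripts has 2613 bases, while the deposited Acot1 gene length is 1559 bases. The shared part of the counted Acot1 model may therefore differ from 12.4%. The sources used here do not give how reads that match several genes were counted, so the split between the pair is uncertain. The stretch of 60 coding bases with the most differences, 13, is shown to let the reader see what tells the pair apart, with the differing bases in capitals (coding bases 823 to 882 of Acot1 and 946 to 1005 of Acot2, GENCODE transcripts).
Acot1: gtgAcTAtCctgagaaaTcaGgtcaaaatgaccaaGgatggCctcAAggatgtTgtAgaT
Acot2: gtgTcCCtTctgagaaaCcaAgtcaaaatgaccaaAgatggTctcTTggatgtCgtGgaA
Summed over the pair, the level was 81.3 to 182 FPKM in EOD libraries, 18.7 to 39.0 FPKM in IF16 libraries and 4.25 to 15.1 FPKM in AL libraries, and these ranges did not overlap. The ratio of Acot1 to Acot2 in FPKM was 9.28 to 16.3 in EOD, 4.305 to 4.91 in IF16 and 1.29 to 4.58 in AL libraries. It was above every other library in EOD, close to constant across the 5 IF16 livers, and overlapped only at its edge between IF16 and AL.

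**Figure D1:**
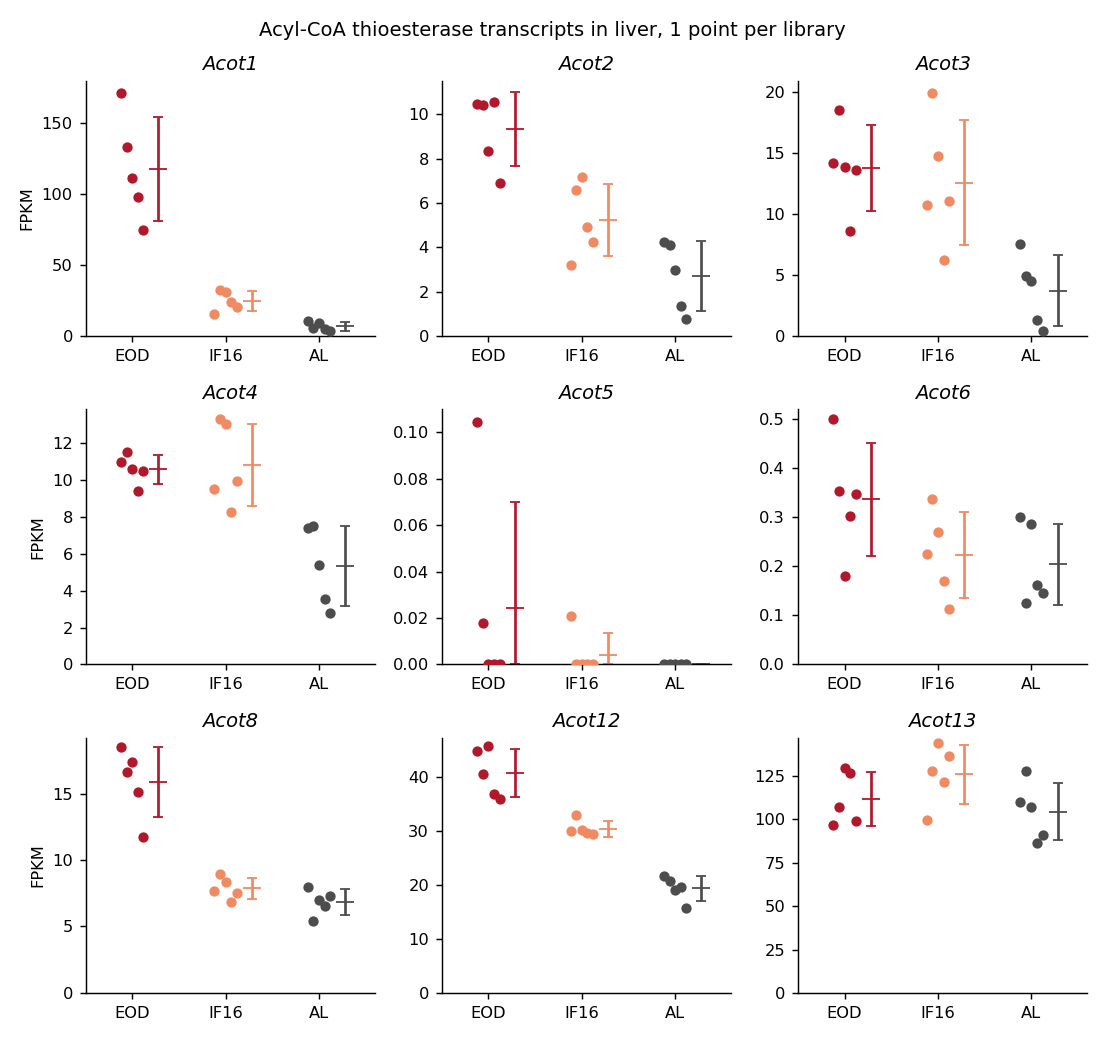
FPKM of the 9 members (1 panel each, axis from 0) in EOD, IF16 and AL livers: points are the 5 libraries of a group in replicate order, and the bar beside them is the mean with 1 SD, cut at 0. Acot1 lay at 74.4 to 171 FPKM in EOD and at or below 32.4 FPKM elsewhere, Acot12 formed 3 separate levels, and Acot13 overlapped in all groups.

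The peroxisomal members did not share 1 pattern. Acot3 (ENSMUSG00000021228, chr12:84052144-84059565, plus strand), a peroxisomal enzyme of long chains, had 14.2, 18.6, 13.9, 8.65 and 13.6 FPKM in EOD libraries, 10.8, 19.95, 14.8, 6.26 and 11.1 FPKM in IF16 libraries, and 7.56, 4.93, 4.47, 1.27 and 0.404 FPKM in AL libraries. EOD lay above AL, IF16 replicate 4 lay below AL replicate 1, and the EOD range fell inside that of IF16. The spread within AL was the widest of any tested member, with replicates 4 and 5 far below the others and a standard deviation of 1.67 on the log2 CPM scale. In EOD against AL the log2 fold change was 1.92 (SE 0.56, adjusted p = 0.0174), and 1.32 (adjusted p = 0.0077) without AL replicates 4 and 5, with adjusted p between 0.00331 and 0.0427 over all settings. In IF16 against AL it was 1.79 (SE 0.56, adjusted p = 0.101), or 1.18 (adjusted p = 0.0677) without AL replicates 4 and 5, and did not pass in either. It did pass with DESeq2, at an adjusted p of 0.0300. Limma on log2(FPKM + 1), for genes with a mean of at least 0.5, gave 0.0380. The range over settings was 0.0300 to 0.21. In EOD against IF16 the log2 fold change was 0.13 (95% interval -0.91 to 1.17), an interval too wide to place the 2 regimens.

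Acot4 (ENSMUSG00000052392, chr12:84038379-84044723, plus strand), which acts on succinyl-CoA and other dicarboxylic esters in peroxisomes, averaged 10.6 ± 0.787 FPKM in EOD, 10.8 ± 2.23 FPKM in IF16 and 5.34 ± 2.16 FPKM in AL livers (SD, n = 5 each). It had 11, 11.5, 10.6, 9.40 and 10.5 FPKM in EOD libraries, 9.53, 13.3, 13.0, 8.30 and 9.95 FPKM in IF16 libraries, and 7.41, 7.54, 5.39, 3.58 and 2.80 FPKM in AL libraries. Every EOD and every IF16 library lay above every AL library, and AL replicates 4 and 5 were again lowest. The log2 fold change was 1.01 (SE 0.22, adjusted p = 0.00212) in EOD against AL and 1.04 (SE 0.22, adjusted p = 0.0139) in IF16 against AL. The IF16 call missed the threshold, at an adjusted p of 0.0526, when only IF16 and AL libraries were fitted, and the settings gave 0.000236 to 0.0526. Between EOD and IF16 the log2 difference was -0.03 (95% interval -0.45 to 0.39).

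Markers of sinusoidal endothelium moved in the same groups as Acot4. All 5 of that list were detected and 4 were higher in EOD and in IF16 than in AL livers by the same test. Their sum was 58.9 to 72.5 FPKM in EOD libraries, 56.5 to 68.2 FPKM in IF16 libraries and 23.2 to 44.4 FPKM in AL libraries, the lowest being AL replicates 4 and 5, and 4 of the 5 were still higher in EOD and in IF16 when those libraries were left out. Stellate cell markers, all 5 detected, were higher in EOD than in AL livers for 3 of 5, with and without AL replicates 4 and 5, and 0 of 5 passed in IF16 against AL. Their sum was 154 to 215 FPKM in EOD libraries, 152 to 181 FPKM in IF16 libraries and 95.9 to 156 FPKM in AL libraries. The part of either cell type in the Acot results was not tested.

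Acot8 (ENSMUSG00000017307, chr2:164792768-164804882, minus strand), the broad peroxisomal thioesterase, passed the test in EOD against AL and in EOD against IF16, and not in IF16 against AL. It had 18.5, 16.6, 17.4, 15.1 and 11.7 FPKM in EOD libraries, 7.65, 8.98, 8.32, 6.84 and 7.52 FPKM in IF16 libraries, and 7.98, 5.40, 6.998, 6.57 and 7.29 FPKM in AL libraries. Every EOD library lay above every other library, and IF16 and AL overlapped. Its log2 fold change was 1.23 (SE 0.14, adjusted p = 1.04e-05) in EOD against AL and 1.02 (SE 0.14, adjusted p = 0.000176) in EOD against IF16. In IF16 against AL it was 0.21 (95% interval -0.07 to 0.49, adjusted p = 0.478). EOD replicate 5 was the lowest EOD library, and the log2 fold change against AL was 1.34 without it. Of the annotated exon bases of Acot8, 246 (12.3%) lie within exons of Snx21 on the other strand, and the sources used here do not give whether counting used strand.

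The other peroxisomal members were near the limit of detection. Acot6 (ENSMUSG00000043487, chr12:84100654-84111349, plus strand), which acts on branched chains such as phytanoyl-CoA, had 0.4997, 0.352, 0.180, 0.302 and 0.347 FPKM in EOD libraries, 0.226, 0.337, 0.269, 0.170 and 0.112 FPKM in IF16 libraries, and 0.301, 0.126, 0.285, 0.161 and 0.145 FPKM in AL libraries, from 12 to 64 counts each. The 3 groups overlapped. Its log2 fold change was 0.73 (SE 0.33, adjusted p = 0.096) in EOD against AL, 0.13 (SE 0.34, adjusted p = 0.882) in IF16 against AL and 0.60 (SE 0.33, adjusted p = 0.223) in EOD against IF16. Acot5 (ENSMUSG00000042540, chr12:84069325-84076020, plus strand), a medium-chain enzyme, had 6 counts in EOD replicate 1, 1 count in EOD replicate 2, 1 count in IF16 replicate 1 and 0 in the other 12 libraries. A count of 0 allows up to 3 counts, or 0.0786 to 0.107 CPM (counts scaled to the library total) at these depths, by counting error alone, and 7.79% of its stretches of 100 bases also occur in other genes, so no fold is given.

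Acot12 (ENSMUSG00000021620, chr13:91741512-91786148, plus strand), the cytosolic acetyl-CoA hydrolase, was higher in EOD than in IF16 livers and higher in both than in AL livers. It had 44.96, 40.7, 45.8, 36.8 and 36.1 FPKM in EOD libraries, 29.97, 33.0, 30.2, 29.6 and 29.5 FPKM in IF16 libraries, and 21.7, 20.7, 19.1, 19.6 and 15.8 FPKM in AL libraries. No group overlapped another, and the spread was smallest among IF16 livers, with an SD of 1.47 FPKM. Fitted log2 fold changes were 1.09 (SE 0.10, adjusted p = 1.44e-06) in EOD against AL, 0.66 (SE 0.10, adjusted p = 0.00166) in IF16 against AL and 0.43 (SE 0.10, adjusted p = 0.00958) in EOD against IF16. By p-value it ranked 43 of all tested genes in EOD against AL, ahead of Acot1 at 47, although its fold was 2.13.

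Acot13 (ENSMUSG00000006717, chr13:24817948-24831517, minus strand), also named Them2, did not pass in any comparison. It had 96.6, 107, 130, 127 and 98.9 FPKM in EOD libraries, 99.99, 128, 144, 121 and 136 FPKM in IF16 libraries, and 110, 128, 107, 86.4 and 91.3 FPKM in AL libraries. All 3 groups overlapped. Its log2 fold change was 0.12 (95% interval -0.16 to 0.39, adjusted p = 0.541) in EOD against AL, 0.29 (0.02 to 0.56, adjusted p = 0.277) in IF16 against AL and -0.17 (-0.44 to 0.10, adjusted p = 0.432) in EOD against IF16.

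Counted by separation rather than by the test, 6 of 8 members had every EOD library above every AL library (9.6% of all tested genes did), 3 of 8 had every IF16 library above every AL library (2.77%), and 3 of 8 had every EOD library above every IF16 library (5.37%). These were the same members that passed the test in each comparison.

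**Figure D2:**
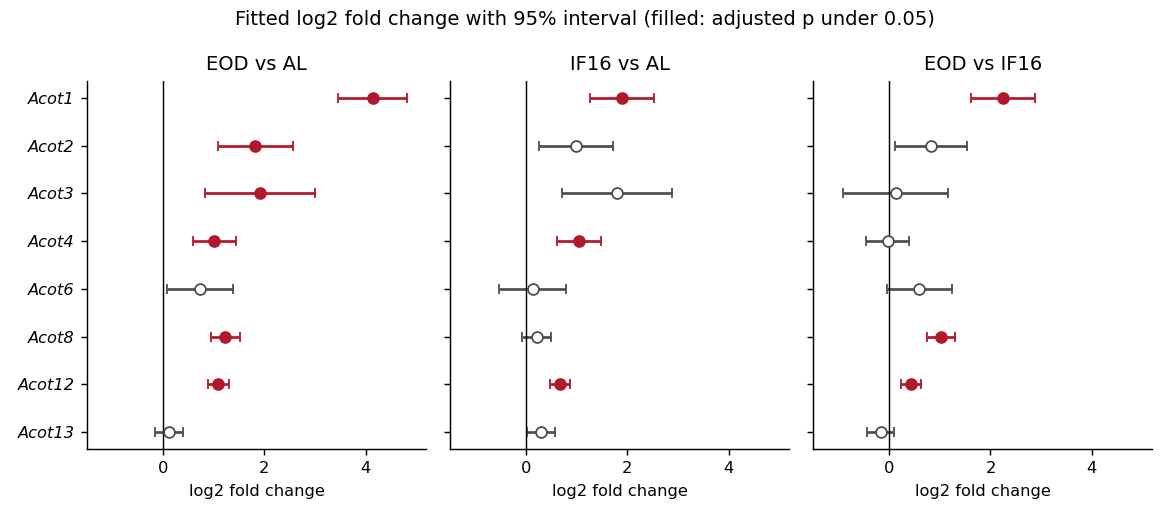
Fitted log2 fold change of the 8 tested members in each comparison, positive where the first-named group was higher, with an approximate 95% interval of 1.96 SE. Filled points passed the adjusted p threshold of 0.05. Acot1 lay farthest right in each panel, at 4.14, 1.89 and 2.24, and Acot13 crossed or nearly touched 0 in each.

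The make-up of the family's transcript pool differed between the groups. The 9 members summed to 320 ± 43.7 FPKM in EOD, 218 ± 29.7 FPKM in IF16 and 149 ± 25.3 FPKM in AL livers (SD, n = 5 each). Acot1 made up 36.1% ± 6.87 of that sum in EOD, 11.2% ± 2.00 in IF16 and 4.44% ± 1.66 in AL livers. Acot13 made up 35.4% ± 6.26 in EOD, 57.9% ± 3.58 in IF16 and 70.1% ± 3.88 in AL livers, and its own level overlapped between the groups. The share of Acot12 overlapped between the groups, at 12.8% ± 1.04 in EOD, 14.2% ± 1.80 in IF16 and 13.1% ± 1.59 in AL livers. By compartment, the peroxisomal members together held 12.7% ± 1.38 of the sum in EOD, 14.4% ± 2.64 in IF16 and 10.6% ± 1.93 in AL livers. Shares rest on the gene lengths of the deposited table, which for Acot1 (1559 bases), Acot3 (2594) and Acot4 (2325) are shorter than the longest coding transcript in a GENCODE annotation of the same build (2272, 3431 and 6203 bases).

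By level per length, the order of the members changed with the regimen. In EOD livers Acot1 and Acot13 shared the top, with means of 118 and 112 FPKM, and Acot1 was the higher of the pair in 2 of 5 libraries. Acot12 came next and overlapped neither neighbour, while the ranges of Acot8, Acot3, Acot4 and Acot2 ran into each other. In IF16 livers Acot13 stood alone at 126 FPKM, followed by Acot12 at 30.5 and Acot1 at 24.7 FPKM, whose ranges overlapped, although Acot12 was above Acot1 in 4 of 5 libraries. Acot3 at 12.6, Acot4 at 10.8, Acot8 at 7.86 and Acot2 at 5.23 FPKM came after them, each overlapping the next. In AL livers Acot13 at 104.5 FPKM and Acot12 at 19.4 FPKM stood clear, and Acot8 at 6.85, Acot1 at 6.77, Acot4 at 5.34, Acot3 at 3.73 and Acot2 at 2.69 FPKM each overlapped the next. Acot6 and Acot5 were last in all groups.

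**Figure D3:**
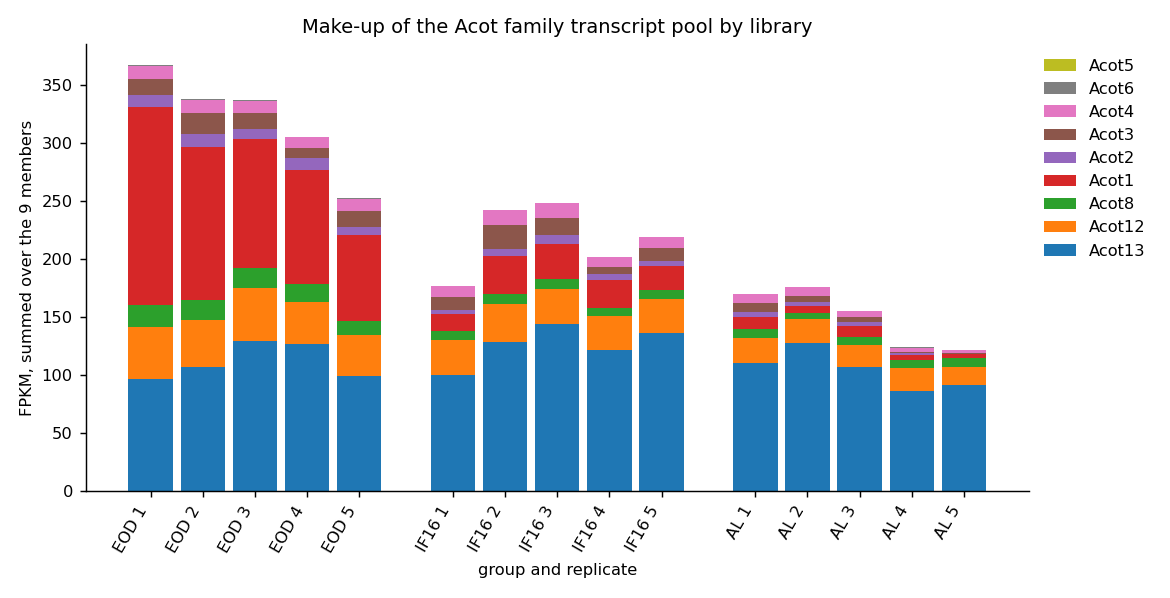
Stacked FPKM of the 9 members in each library, with EOD replicates 1 to 5 on the left, IF16 in the middle and AL on the right. The Acot13 block at the bottom has a similar height in all groups, while the Acot1 block takes 29.5% to 46.6% of the EOD bars and 2.86% to 6.35% of the AL bars.

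6 members form 1 cluster on chromosome 12, in the order Acot2, Acot1, Acot4, Acot3, Acot5 and Acot6, all on the plus strand over 123489 bases (chr12:83987861-84111349). Together they made up 46.8% ± 6.73 of the family sum in EOD, 24.3% ± 3.82 in IF16 and 12.03% ± 4.53 in AL livers. The tested genes on its flanks did not pass: in EOD against AL 2410016O06Rik had 0.28 on the log2 scale (SE 0.12, adjusted p = 0.0693), Dnal1, a dynein light chain, -0.21 (SE 0.39) and Elmsan1 -0.28 (SE 0.24). Gm17673, Gm26571 and Pnma1, the other nearest protein-coding genes, had too few counts to test. The lincRNA 4732463B04Rik lies on the minus strand across Acot4 and Acot3 and shares 9.21% and 9.08% of their exon bases. A GENCODE annotation of the same build also places Gm49366, not analysed here, on the plus strand over 396 exon bases (11.5%) of Acot3, where strand would not tell the genes apart. The lincRNA's log2 fold change was 0.39 (SE 0.42, adjusted p = 0.496) in EOD against AL and 0.44 (SE 0.42, adjusted p = 0.633) in IF16 against AL.

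**Figure D4:**
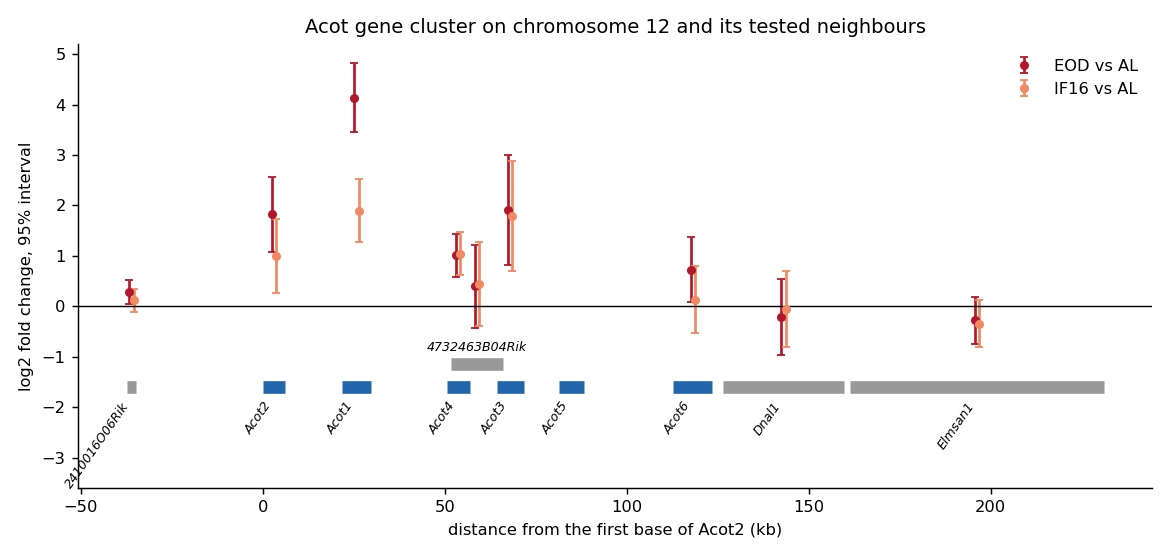
Log2 fold change with an approximate 95% interval (1.96 SE) for the tested genes of the chromosome 12 cluster and its neighbours, against distance from the first base of Acot2, with gene bodies drawn to scale as bars (Acot genes dark, others grey). Acot2, Acot1, Acot4 and Acot3 lie above 0 in EOD against AL, at 1.82, 4.14, 1.01 and 1.92. Of the other genes, 2410016O06Rik lies at 0.28, 4732463B04Rik at 0.39, Dnal1 at -0.21 and Elmsan1 at -0.28, and none of these passed the adjusted p threshold. Acot5 has a bar and no point because it was not tested.

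The 250 bases before the annotated start were read for 7 of the 9 members from RefSeq (GRCm38.p6), and searched on both strands for AGGTCANAGGTCA, the direct repeat with a spacer of 1 base that PPARA and RXR bind, over its 12 fixed letters. Acot12 held a match with 1 mismatch, which 0.484% of 32851 promoter windows of the same length do, and Acot4 a match with 2 mismatches, ending at the base before the start, which 3.24% do. The best matches of Acot2 and Acot5 had 3 mismatches (21.3% of windows), those of Acot1 and Acot3 had 4 and that of Acot8 had 5. The half-site AGGTCA alone, part of that repeat, was in the Acot4, Acot5 and Acot12 windows and in 14% of all windows. The windows of Acot12 and Acot4 are shown for these matches and that of Acot1 as the member that changed most, 5′ to 3′ on the gene's plus strand, with the best match to the repeat in capitals, read on the minus strand in Acot12 and Acot4 and on the plus strand in Acot1.
Acot12, chr13:91741271-91741520: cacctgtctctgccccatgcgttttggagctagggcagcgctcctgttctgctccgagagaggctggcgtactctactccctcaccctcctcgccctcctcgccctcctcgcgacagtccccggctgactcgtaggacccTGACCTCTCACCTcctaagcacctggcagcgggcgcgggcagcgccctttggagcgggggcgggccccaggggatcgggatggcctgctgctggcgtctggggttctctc
Acot4, chr12:84038129-84038378: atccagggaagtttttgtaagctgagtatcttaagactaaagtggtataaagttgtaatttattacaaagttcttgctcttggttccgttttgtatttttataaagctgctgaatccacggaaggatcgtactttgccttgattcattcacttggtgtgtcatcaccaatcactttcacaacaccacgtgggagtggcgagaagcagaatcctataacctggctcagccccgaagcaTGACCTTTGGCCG
Acot1, chr12:84009252-84009501: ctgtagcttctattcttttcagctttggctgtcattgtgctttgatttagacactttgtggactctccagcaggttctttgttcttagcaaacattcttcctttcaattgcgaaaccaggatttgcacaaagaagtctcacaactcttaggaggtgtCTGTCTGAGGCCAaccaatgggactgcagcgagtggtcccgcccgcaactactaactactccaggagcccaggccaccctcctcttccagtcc
The order of the matches was not the order of the changes: Acot1, with the largest log2 fold change at 4.14, had a match of 4 mismatches, and Acot12, at 1.09, had the closest. A match in letters is a description of these windows and shows no binding, and a poor match shows no lack of it. Sequence outside these 250 bases was not searched, and a link between the repeat and the changes was not tested.

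For each tested member, the genes with the most similar profile were found over the 15 libraries among 11151 protein-coding genes, as the root mean square (RMS) difference of centred log2 CPM, which all share the same libraries and depth. Acot1, whose own profile deviated by an RMS of 1.78 from its mean, was closest to Cyp4a31 at 0.35, followed by Arntl, a clock factor, at 0.65 and Cyp4a10, a fatty acid omega-hydroxylase, at 0.73. Acot2 was closest to Retsat, a retinol saturase, at 0.35, beside an own deviation of 1.04. Acot3 was closest to Abcd2, a peroxisomal acyl-CoA transporter, at 0.63, beside an own deviation of 1.46. Acot4 was closest to Fcgr2b at 0.18, Gpihbp1 at 0.21 and Bmp2 at 0.23, beside an own deviation of 0.63. Fcgr2b is in the list of sinusoidal endothelium markers, Gpihbp1 anchors lipoprotein lipase on endothelium, and Bmp2 encodes a growth factor. Acot12 was closest to Hsd17b11, a lipid droplet dehydrogenase, at 0.13, beside an own deviation of 0.47. Among the members themselves the RMS difference was smallest between Acot8 and Acot12, at 0.31, and largest between Acot1 and Acot13, at 1.73. It was not scaled to the own deviation, which was 0.57 for Acot8 and 0.24 for Acot13. A small difference therefore need not mean a shared pattern: in IF16 against AL Acot12 passed the test and Acot8 did not.

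Genes around the family were read from pathway lists, against a median of -0.01 and 17.6% of all tested genes called in each direction in EOD against AL. These background values are from all 15 libraries, and list counts without AL replicates 4 and 5 have none from their own fit. Each gene named from these lists passed the edgeR test in that comparison. The lists share genes, so their counts are not independent of each other. For example, Acss2 is in both the synthetase list and the lipogenic list. Other thioesterases and related genes changed in both directions. Of 9 tested, 4 were higher and 1 lower in EOD than in AL livers, with a median log2 fold change of 0.47. Acnat1 and Acnat2, relatives of the bile acid conjugating enzyme Baat, had log2 fold changes of 1.33 (SE 0.17, adjusted p = 2.37e-05) and 1.96 (SE 0.32, adjusted p = 0.00039). Acot11, the thioesterase known as Them1, was at 0.123 ± 0.031 FPKM in EOD livers, against 0.612 ± 0.294 FPKM in AL livers (SD, n = 5 each). That is -2.29 on the log2 scale (SE 0.33, adjusted p = 6.45e-05). Acot11 was also the 1 gene of this list called in IF16 against AL, at -1.49 (SE 0.31, adjusted p = 0.0125). Its levels were low: in EOD livers its mean was below the 0.336 FPKM of Acot6, described above as near the limit of detection.

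The acyl-CoA synthetases, which make the substrate that thioesterases split, were 5 higher and 8 lower of 18 tested in EOD against AL, with a median of -0.43. Acss2, which makes cytosolic acetyl-CoA from acetate, was at 9.76 ± 0.67 FPKM in EOD and 49.6 ± 15.7 FPKM in AL livers (SD, n = 5 each), which is -2.33 on the log2 scale (SE 0.21, adjusted p = 1.29e-06). Slc27a1, a fatty acid transporter with synthetase activity, had 1.67 (SE 0.23) and Acsl3, a long-chain synthetase, -1.41 (SE 0.20). Of 14 genes of coenzyme A synthesis and breakdown, 4 were higher and 3 lower, with a median of 0.13. The 3 lower were Nudt7, a peroxisomal hydrolase of coenzyme A, at -1.55 (SE 0.30), Slc5a6, the pantothenate and biotin transporter, at -1.39 (SE 0.20), and Pank3, a pantothenate kinase, at -0.52 (SE 0.10).

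Of the oxidation and transport lists, the mitochondrial one had most of its genes called higher in EOD livers. Mitochondrial beta-oxidation had 14 of 16 genes higher and 0 lower in EOD against AL, with a median of 0.65, and 11 of 16 higher without AL replicates 4 and 5. Acadm, the medium-chain dehydrogenase, had a log2 fold change of 1.05 (SE 0.13), Hadhb, a subunit of the trifunctional protein, 1.26 (SE 0.16), and Etfdh, which passes electrons to the respiratory chain, 1.13 (SE 0.17). Peroxisomal beta-oxidation had 7 of 14 higher and 1 lower (median 0.27), and 5 higher and 1 lower without AL replicates 4 and 5. Its genes with the smallest p were Ehhadh, the bifunctional enzyme, at 2.23 (SE 0.26), Hacl1, a lyase of 2-hydroxyacyl-CoA, at 1.61 (SE 0.21) and Eci2, an enoyl-CoA isomerase, at 0.88 (SE 0.11). Peroxisomal transport and acylcarnitine transferases had 4 of 11 higher and 2 lower (median 0.31). Crot, the transferase that links chains shortened in peroxisomes to carnitine, had 1.64 (SE 0.25), Slc25a20, the mitochondrial carnitine carrier, 0.86 (SE 0.13), and Slc25a17, a peroxisomal cofactor carrier, -0.51 (SE 0.08).

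Ppara was at 13.8 ± 0.784 FPKM in EOD, 10.3 ± 0.560 FPKM in IF16 and 7.38 ± 1.62 FPKM in AL livers (SD, n = 5 each). Its log2 fold change was 0.92 (SE 0.11, adjusted p = 1.93e-05) in EOD against AL and 0.49 (SE 0.11, adjusted p = 0.0222) in IF16 against AL. Without AL replicates 4 and 5 Ppara still passed in EOD against AL, at 0.76 (adjusted p = 0.000113), and no longer in IF16 against AL, at 0.33 (adjusted p = 0.113). Of 15 regulators, 3 were higher and 3 lower in EOD (median 0.03), the other higher ones being Creb3l3, a fasting transcription factor, at 0.44 (SE 0.08) and Rxrb, a partner receptor, at 0.43 (SE 0.09). Of 29 tested PPARA targets outside the Acot family, 19 were higher and 4 lower (median 0.86). Some of these targets, such as Ehhadh, were already counted in the lists above. Without AL replicates 4 and 5, 16 were higher and 5 lower. Cyp4a31, an omega-hydroxylase, had 3.90 (SE 0.29) and Plin5, a lipid droplet protein, 2.10 (SE 0.22). In IF16 against AL 4 of the 29 were higher and 2 lower (median 0.32), but 2 were higher and 4 lower (median 0.23) without AL replicates 4 and 5. The list of malonyl-CoA, acetyl-CoA and lipogenic enzymes went the other way in EOD, with 1 of 10 higher and 9 lower (median -2.34), including Acaca, acetyl-CoA carboxylase, at -2.34 (SE 0.22) and Slc25a1, the citrate carrier, at -1.01 (SE 0.12).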

How the data were processed

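Liver RNA was sequenced in 15 libraries. The submitters' processing notes name STAR 2.5, HTSeq 0.6.1, DESeq2 and mm10, and the roles, the strand mode and the treatment of shared reads are not given in the sources used here. The authors deposited raw counts per gene and FPKM, which match the count scaled by listed gene length and library total in 100% of cells (relative tolerance 1e-08). Counts were fitted with edgeR 4.0.16 in R 4.3.3 (filterByExpr, minimum count 10; TMM; all 15 libraries, 1 mean per group; robust quasi-likelihood F test; Benjamini-Hochberg over 13837 genes; threshold 0.05). SEs are log2 fold changes over the root of F. Intervals called 95% are 1.96 SE, a normal multiplier, and are narrower than the F test would give. FPKM were used as deposited for levels and shares. No pair of libraries in a group agreed within sampling noise (chi-square over degrees of freedom 24.9 to 219), a spread that may be technical. Here n counts libraries, because no label ties a library to its own mouse. Floors of 3 counts cover counting error only. Alternatives were DESeq2 1.42.0, limma 3.58.1, other filters and scalings, a replicate block and leaving libraries out. Sequences came from RefSeq and GENCODE tables and were compared with Biopython 1.88.

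Members, gene lists and tests were chosen with earlier results of these data known. The text names all members, up to 3 called genes per list with the smallest p in EOD against AL, the most alike genes and the cluster's nearest neighbours.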

Additional observations from a re-analysis of the deposited data

Results flagged for a closer look

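Over 26 sets of 5 libraries, 1 library of a group passed Dixon's limit (gap over range above 0.71) in 3 sets, while chance alone gives about 1 in 20. Acot12 had 33.0 FPKM in IF16 replicate 2, against 29.5 to 30.2 FPKM in the other IF16 libraries. Acot5 had 0.105 FPKM in EOD replicate 1, from 6 counts, against 0 to 0.0179 FPKM in the other EOD libraries. Acot5 also had 0.021 FPKM in IF16 replicate 1, from 1 count, against 0 in the other IF16 libraries. With 4 libraries at 0 any single count passes that limit, so this last case says nothing of how far the library lay apart.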

How the results depend on the processing

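The count of members higher in EOD than in AL livers was 6 under all 10 alternatives and when each library was left out. In IF16 against AL it was 2 to 4 over the alternatives, and in EOD against IF16 3 to 4; leaving out single libraries gave 3 in both. Over all genes, the calls in IF16 against AL were 484, but 937 with DESeq2's Wald test and 261 with limma on log2(FPKM + 1) without a filter; the cause was not tested. Leaving out single libraries gave 3907 to 5659 calls in EOD against AL, 230 to 631 in IF16 against AL and 1420 to 3372 in EOD against IF16, the highest each time without EOD replicate 5. The lowest were without EOD replicate 3, IF16 replicate 3 and IF16 replicate 5 in that order. Differences near 0 changed sign: Acot6 in IF16 against AL was -0.0862 without AL replicates 4 and 5 and -0.0741 to 0.304 without single libraries, Acot3 in EOD against IF16 was -0.0411 to 0.363, and Acot4 in EOD against IF16 was -0.112 to 0.0604.

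Replicate numbers gave no clear pairing of the libraries. Same-numbered libraries of different groups correlated at -0.13 to 0.218 (median 0.0539, 5 of 15 pairs over 0.1). Differently numbered ones correlated at -0.274 to 0.351 (median -0.00498, 12 of 60 pairs over 0.1). Of 15 libraries, 3 correlated best with their own number. These values do not settle whether a weak pairing exists. With the replicate number as a block, 6, 3 and 3 members and 4809, 492 and 2226 genes were called in EOD against AL, IF16 against AL and EOD against IF16. Depth limits Acot5 and Acot6, and shared sequence limits the split within the chromosome 12 cluster.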
